A study of Homo sapiens with 4 samples.

Results

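The collagen gene family was followed across 4 RNA-seq libraries of human bone cancer cells kept in suspension. Members were chosen by name alone, as every gene whose symbol is COL, a number, A and a number, and 44 of the 61806 genes in the deposited table met that rule. JJ012, a chondrosarcoma line, and 143B, an osteosarcoma line, were each sequenced without treatment and after 72 h with 1 mM melatonin, a pineal hormone, with detachment from the culture dish common to all 4 libraries. The labels give no time for the untreated libraries. Each of the 4 conditions had 1 library, so no difference below has a replicate check, no test could be run within a line and no p-value is given. Each tumour type is represented by 1 line, and the values describe these libraries only.

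Collagens are secreted proteins of 3 chains wound into a triple helix, and a cell has to express the right partner chains to assemble a given type. Fibrillar collagens form the load-bearing fibrils of bone, skin and cartilage, type IV makes the network of basement membranes, and FACIT collagens (fibril-associated collagens with interrupted triple helices) decorate fibrils. Type VI forms beaded filaments close to the cell surface. Osteoblasts are known for type I collagen, and chondrocytes for types II, IX and XI.

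Libraries held 15889564 to 19218343 counts assigned to genes, and the mitochondrial share of counts was 6.78% and 4.35% in the JJ012 control and melatonin libraries and 1.63% and 2.46% in those of 143B. A count of 0 allowed up to 3 counts, or 0.156 to 0.189 CPM (counts scaled to a common library total) per library. Some defining markers of both tissues were absent. COL2A1, the main cartilage collagen, had 0, 0, 2 and 5 counts in JJ012 control, JJ012 melatonin, 143B control and 143B melatonin, the order kept for every set of 4 values below. COL10A1, made by hypertrophic chondrocytes, had 1, 4, 2 and 2 counts. Of 10 chondrocyte markers, 2 reached 1 FPKM (fragments scaled to gene length and library total) in the JJ012 control, SOX9 and COL11A2, and CNMD, a cartilage-specific glycoprotein, had no count. That list leaves out COL11A1, COL9A2 and COL9A3, which were above 1 FPKM there and are described below. SOX9, the chondrocyte master regulator, was at 15.06, 6.16, 15.48 and 12.09 FPKM, so it did not set JJ012 apart. In 143B control, 2 of 8 osteoblast markers reached 1 FPKM, RUNX2 and BGLAP, while the transcription factor SP7 and the bone matrix genes IBSP and DMP1 had no count. In the same list SPP1, which encodes osteopontin, was at 79.39 and 64.50 FPKM in JJ012 and 0.40 and 0.53 FPKM in 143B.

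Melatonin-treated JJ012 cells had lower levels of nearly every collagen that was expressed, whereas the collagens of 143B moved little. The collagen share of all counts was 0.766%, 0.544%, 0.899% and 0.992%, and the collagen FPKM summed to 624.88, 389.51, 1112.31 and 1260.24. Of the 44 genes, 22, 11, 16 and 17 reached 1 FPKM. The sum was therefore lower after melatonin in JJ012 and higher after melatonin in 143B. A log2 fold change below is that of FPKM + 1, for genes reaching 1 FPKM in either library compared, and a gene is said to have risen or fallen where it reached 0.58 in size. On this scale changes of low genes are understated, so the log2 ratio of CPM with its exact 95% interval is given beside it. Such intervals cover counting error at most, since 1 library per condition gives no measure of the spread between cultures. Reads amplified by PCR are not independent molecules, so the intervals may be too narrow even for counting error. In bulk RNA, fewer cells of one kind and less RNA per cell cannot be told apart.

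In JJ012, 22 of the 44 collagens passed the filter, and 20 of them fell while 0 rose. Among all 15794 genes that passed, 18.6% fell and 19.6% rose, and 16.1% of the protein-coding genes fell. The median log2 fold change was -0.80 over the 22 collagens and 0.01 over all genes. Only the control library carried 11 of these 22 genes past 1 FPKM, which favours a fall among them. Among the 11 that reached 1 FPKM after melatonin, 9 fell and 0 rose, against 13.3% and 21.97% of all genes chosen the same way. The pair that did not reach the threshold was COL6A1 and COL6A3. By counts alone, over the 43 collagens with a count, the interval lay below 0 for 32, above 0 for 0 and included 0 for 11, beside 22.3% below and 19.3% above 0 over all genes. Those 11 had at most 41 control counts and 23 melatonin counts. Of the 17496 protein-coding genes with a count, 5658 had intervals below 0 and 5217 above 0. In 143B, 17 collagens passed the filter and 0 reached the threshold, where 12.7% of all 14135 genes did, 6.09% higher and 6.65% lower. Among the 10878 protein-coding genes the share was 6.09%, with 3.48% higher and 2.60% lower. The log2 fold changes of the 17 collagens ran from -0.46 to 0.51 with a median of 0.10, beside 0.03 for all genes. By counts, 10 of the 40 collagens with a count had intervals above 0 and 7 below, beside 16.0% and 13.9% of all genes. Of the 16021 protein-coding genes with a count in 143B, 4054 had intervals above 0 and 3247 below.

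**Figure D1:**
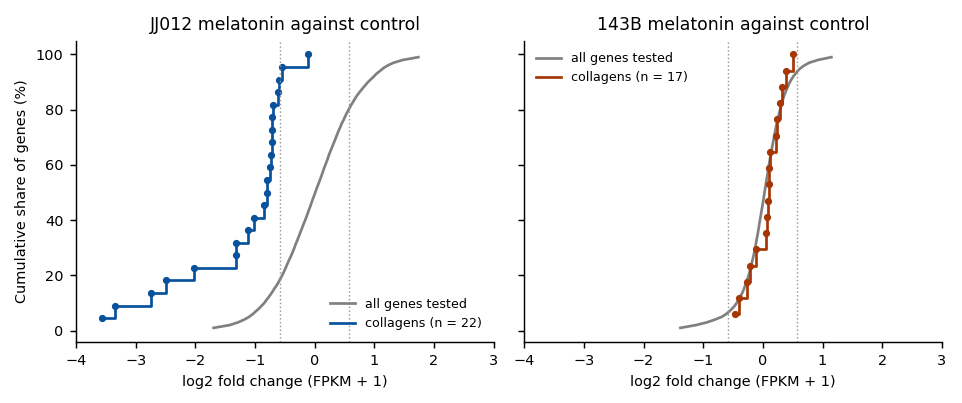
Cumulative share of genes (vertical axis, %) against the log2 fold change of FPKM + 1, melatonin over control (horizontal axis), in JJ012 (left) and 143B (right). Grey lines are all genes tested from the 1st to the 99th percentile, coloured steps and points are the collagens (22 in JJ012, 17 in 143B), and dotted lines mark 0.58 in either direction; in JJ012 the collagens lie left of the grey line, from -3.56 to -0.11, and in 143B they lie between the dotted lines.

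Fibrillar collagens held the steepest falls in JJ012. Their FPKM summed to 136.46, 24.05, 75.36 and 69.59, so 17.6% of the JJ012 control level was left after melatonin and 92.3% of the 143B control level. All 7 fibrillar genes that passed the filter in JJ012 fell, with log2 fold changes of -0.71 to -3.56, and 7 of the 11 members reached 1 FPKM in the control and 2 after melatonin. The other 5 passed through the control library alone, which favours a fall.

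Type I collagen, the main protein of bone matrix, is built from COL1A1 (chr17:50184101-50201632, minus strand of hg38, as deposited) and COL1A2 (chr7:94394895-94431227, plus strand). COL1A1 was at 10.92, 0.77, 0.49 and 0.33 FPKM, from 1891, 112, 70 and 51 counts. COL1A2 was at 12.48, 0.14, 0.00 and 0.01 FPKM, from 2594, 24, 0 and 1 counts. Both chains were thus high in the JJ012 control alone. By CPM, melatonin-treated JJ012 was 14.2-fold lower for COL1A1 (log2 ratio -3.83, 95% interval -4.11 to -3.55) and 90.8-fold lower for COL1A2 (-6.50, -7.15 to -5.93). Because the second chain dropped further, the ratio of COL1A1 to COL1A2 per length went from 0.875 (0.824 to 0.929) to 5.60 (3.58 to 9.11). In 143B the COL1A1 ratio of CPM was -0.57 (-1.12 to -0.03) on the log2 scale, between 70 and 51 counts.

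COL3A1 (chr2:188974373-189012746, plus strand), the single chain of type III collagen that co-assembles with type I in soft tissue, was at 10.05, 0.09, 0.04 and 0.00 FPKM. From 1305 to 10 counts, it was 110-fold lower by CPM in JJ012 with melatonin (log2 ratio -6.78, -7.84 to -5.89), and it had 4 and 0 counts in 143B. Its neighbour showed the opposite line pattern. COL5A2 (chr2:189031898-189225312, minus strand), a type V chain, ends 19.151 kb from the end of COL3A1 on the other strand and was at 0.68, 0.36, 14.82 and 21.49 FPKM. COL5A2 did not pass the filter in JJ012, where its 95 and 42 counts gave a log2 CPM ratio of -0.93 (-1.49 to -0.39), and in 143B it was 0.51 higher by log2 fold change, the largest positive value of the family there.

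COL5A1, the other main type V chain, which nucleates collagen fibrils, was the most abundant fibrillar collagen of every library, at 74.24, 17.53, 45.12 and 33.86 FPKM. It fell in JJ012 (log2 fold change -2.02, CPM ratio 4.24-fold lower) and was 0.40 lower on the log2 scale in 143B, short of the threshold. With COL5A2 this gave COL5A1 to COL5A2 ratios per length of 109.9, 49.3, 3.04 and 1.58. The excess of COL5A1 was thus far larger in JJ012, and the ratio was lower with melatonin in both lines. COL5A3, the third type V chain, was at 0.94, 0.33, 1.42 and 1.53 FPKM.

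Type XI collagen forms the core of cartilage fibrils, and COL11A1 (chr1:102876467-103108872, minus strand) encodes its first chain. COL11A1 was at 22.92, 3.24, 0.00 and 0.00 FPKM, with 4004 and 476 counts in JJ012 and none in 143B. It was 7.07-fold lower by CPM with melatonin (log2 ratio -2.82, -2.96 to -2.68), yet COL11A1 remained the fibrillar collagen next in level to COL5A1 in that library. COL11A2, its partner, was at 1.67, 0.61, 0.52 and 0.55 FPKM, and its log2 fold change in JJ012 was -0.73. COL11A1 exceeded COL11A2 13.7-fold per length in the JJ012 control (12.0 to 15.7) and 5.28-fold with melatonin (4.12 to 6.85). COL27A1, a fibrillar collagen of developing cartilage, was at 2.11, 0.90, 12.84 and 11.74 FPKM, fell in JJ012 by 0.71 and was 0.12 lower in 143B.

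COL11A1 had the largest fall of the fibrillar genes with a promoter window in the RefSeq set used here. COL1A1, COL1A2 and COL3A1 fell further but had no window in that set. The window of COL11A1 is shown 5′ to 3′ (GRCh38.p14, chr1:103108473-103108772, minus strand, 250 bases before to 50 after the start). Capitals mark matches to CCAAT and GGGCGG on either strand.
COL11A1: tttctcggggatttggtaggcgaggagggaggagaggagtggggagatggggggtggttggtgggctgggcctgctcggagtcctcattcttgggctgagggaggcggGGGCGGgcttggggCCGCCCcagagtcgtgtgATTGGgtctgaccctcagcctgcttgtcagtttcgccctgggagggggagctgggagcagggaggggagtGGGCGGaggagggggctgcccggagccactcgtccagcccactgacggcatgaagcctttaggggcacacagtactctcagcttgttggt
It holds 1 CCAAT and 3 GGGCGG matches and no TATAAA. Over all 35116 RefSeq windows of 300 bases, 34.6% hold CCAAT, 45.0% GGGCGG and 11.5% TATAAA on either strand. Of 44 windows, belonging to 32 of the 44 collagens, 14 hold CCAAT, 24 GGGCGG and 8 TATAAA. A match is a description of letters, not of binding.

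**Figure D2:**
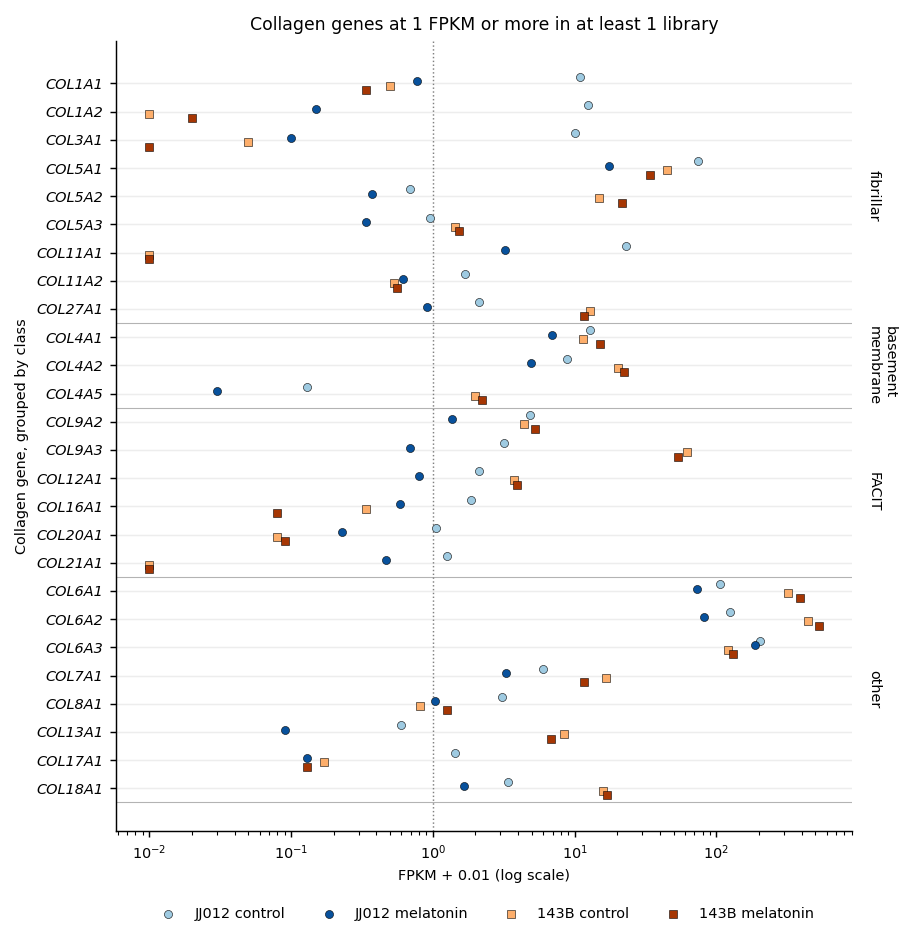
FPKM + 0.01 on a log axis for the 26 collagens that reached 1 FPKM somewhere, grouped by class from top to bottom, with circles for JJ012 and squares for 143B, light for control and dark for melatonin. The dotted line stands at 1 FPKM; COL1A1, COL1A2, COL3A1 and COL11A1 reach it in 1 or both JJ012 libraries and in neither 143B library.

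Type IV collagen fell less in JJ012 and kept its balance of chains. COL4A1 was at 12.84, 6.91, 11.42 and 15.22 FPKM, and COL4A2 at 8.78, 4.95, 20.30 and 22.15 FPKM. These 2 genes encode the chains of the common basement membrane network. In JJ012 their CPM was 1.86-fold and 1.77-fold lower with melatonin, while in 143B the log2 CPM ratios were 0.41 (0.34 to 0.49) and 0.13 (0.08 to 0.18). The COL4A1 to COL4A2 ratio per length was 1.46 (1.39 to 1.53), 1.40 (1.30 to 1.497), 0.563 (0.537 to 0.589) and 0.687 (0.660 to 0.714), so the intervals of the JJ012 libraries overlapped while the 143B ratio was higher with melatonin. Where FPKM was rescaled to TPM (FPKM with an equal sum in every library), COL4A2 was at -0.53 in JJ012 and no longer passed. COL4A5, a chain of kidney and other specialised basement membranes, was at 0.12, 0.02, 1.98 and 2.2 FPKM.

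COL4A1 and COL4A2 lie head to head on chromosome 13 and overlap by 1346 bases in the deposited positions. Their RefSeq starts are 127 bases apart, and the promoter windows share 226 bases, so both are shown 5′ to 3′ on their own strand (GRCh38.p14; COL4A1 at chr13:110307108-110307407, minus strand; COL4A2 at chr13:110307034-110307333, plus strand). Capitals again mark CCAAT and GGGCGG on either strand.
COL4A1: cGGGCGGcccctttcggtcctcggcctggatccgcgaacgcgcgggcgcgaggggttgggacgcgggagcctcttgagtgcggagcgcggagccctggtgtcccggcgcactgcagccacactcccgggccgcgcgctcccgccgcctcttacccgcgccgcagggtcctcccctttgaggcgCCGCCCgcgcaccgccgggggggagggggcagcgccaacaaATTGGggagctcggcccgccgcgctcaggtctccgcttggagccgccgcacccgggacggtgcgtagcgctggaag
COL4A2: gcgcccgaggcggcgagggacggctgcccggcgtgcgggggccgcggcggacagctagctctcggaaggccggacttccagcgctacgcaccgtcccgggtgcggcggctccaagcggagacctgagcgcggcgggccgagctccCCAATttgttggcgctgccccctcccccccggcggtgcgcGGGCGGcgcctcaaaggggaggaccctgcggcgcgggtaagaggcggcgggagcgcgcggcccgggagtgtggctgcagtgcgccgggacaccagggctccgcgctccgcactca
The shared stretch holds 1 CCAAT and 1 GGGCGG match, each read from both sides, and neither window holds TATAAA. The other type IV pairs are also adjacent, COL4A3 and COL4A4 170 bases apart on chromosome 2 and COL4A5 and COL4A6 340 bases apart on chromosome X. COL4A3, COL4A4 and COL4A6 stayed below 1 FPKM in all 4 libraries.

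FACIT collagens were also lower in JJ012 with melatonin, and their FPKM summed to 14.94, 4.26, 71.14 and 63.45. The 6 that passed fell, but 5 of them passed through the control library alone, and COL9A2 was the 1 that reached 1 FPKM in both. COL9A2 was at 4.86, 1.35, 4.39 and 5.27 FPKM and COL9A3 at 3.18, 0.68, 62.47 and 53.93 FPKM, 3.60-fold and 4.69-fold lower by CPM in JJ012 with melatonin. These chains build cartilage type IX collagen together with COL9A1, which had 3, 1, 0 and 0 counts. The third chain therefore had at most 3 counts in each of the 4 libraries, including those of 143B with 4805 and 4481 counts of COL9A3. COL9A3 shares 45 exonic bases with TCFL5 on the opposite strand, and the counting strand is not given in the sources used here.

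Among the other FACIT genes, COL12A1, found in tendon and ligament, was at 2.10, 0.79, 3.73 and 3.91 FPKM and 2.67-fold lower by CPM in JJ012. COL16A1 was at 1.84, 0.58, 0.33 and 0.07 FPKM. Below the FPKM filter in 143B, COL16A1 had 49 and 11 counts there, a log2 CPM ratio of -2.27 (-3.36 to -1.30), which was negative as in JJ012 (-1.68, -2.04 to -1.33). COL16A1 shares 117 exonic bases with an opposite-strand antisense gene that had 13, 6, 0 and 5 counts. COL20A1, at 1.05, 0.22, 0.07 and 0.08 FPKM, and COL21A1, at 1.24, 0.46, 0.00 and 0.00 FPKM, fell in JJ012 from low levels.

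Type VI collagen made up most of the family's signal and moved least in JJ012. COL6A1 was at 106.99, 72.88, 321.82 and 390.56 FPKM, COL6A2 at 124.86, 81.64, 445.87 and 527.77 FPKM, and COL6A3 at 203.52, 187.89, 121.31 and 130.77 FPKM. The type VI chains took 69.7%, 87.9%, 79.9% and 83.2% of collagen FPKM. Without them, the JJ012 sum went from 189.48 to 47.08 FPKM, or 4.02-fold lower, and the 143B sum from 223.28 to 211.12 FPKM. In JJ012 the log2 fold changes of COL6A1, COL6A2 and COL6A3 were -0.55, -0.61 and -0.11, and on the TPM scale COL6A2 no longer passed (-0.34) and COL6A3 turned to 0.16. In 143B they were 0.28, 0.24 and 0.11.

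Within the type VI trimer the chains differed between lines. COL6A1 and COL6A2, 93.061 kb apart on chromosome 21 (chr21:45981770-46005050 and chr21:46098112-46132848, both on the plus strand), kept a ratio per length of 0.857, 0.893, 0.722 and 0.740. Against COL6A3 (chr2:237324003-237414328, minus strand), the COL6A1 ratio was 0.526 (0.515 to 0.536), 0.388 (0.378 to 0.398), 2.65 (2.61 to 2.69) and 2.99 (2.95 to 3.03). COL6A3 was thus in excess of COL6A1 in JJ012 and below it in 143B, and melatonin libraries lay further from 1 in each line. The window of COL6A3, the expressed collagen that moved least in JJ012, is shown 5′ to 3′ in lower case throughout, since it holds none of the 3 motifs (GRCh38.p14, chr2:237414115-237414414, minus strand).
COL6A3: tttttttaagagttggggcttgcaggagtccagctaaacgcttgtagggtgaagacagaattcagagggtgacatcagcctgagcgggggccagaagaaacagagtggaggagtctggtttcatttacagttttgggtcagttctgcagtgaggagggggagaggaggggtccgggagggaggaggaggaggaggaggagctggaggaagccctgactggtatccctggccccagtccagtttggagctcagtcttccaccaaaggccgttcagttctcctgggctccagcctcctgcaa

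**Figure D3:**
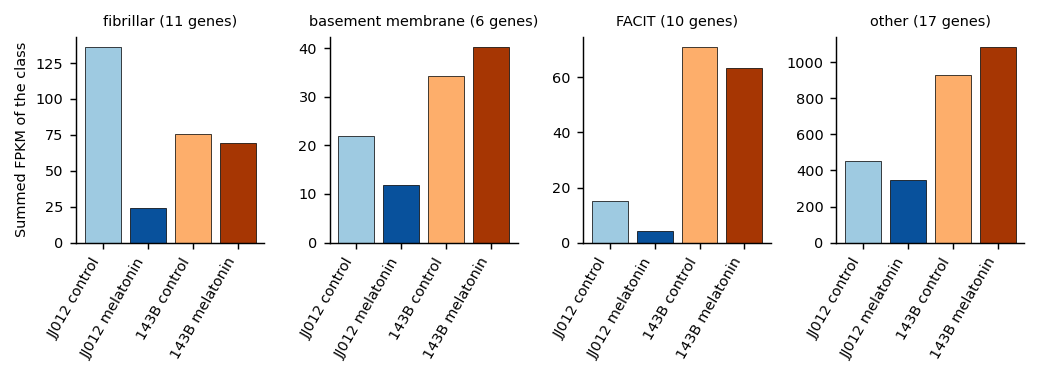
Summed FPKM (vertical axis, from 0, a different scale in each panel) of the 4 collagen classes in the 4 libraries, 1 bar per library and no error bars because each condition had 1 library. The fibrillar bar is at 136.46 in the JJ012 control and 24.05 with melatonin, and the bars of 143B stand at 75.36 and 69.59; type VI chains are part of the class named other.

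The remaining collagens are those of anchoring fibrils, short-chain networks, cell membranes and the basement membrane zone. COL7A1, the anchoring fibril collagen of skin, was at 5.97, 3.29, 16.53 and 11.74 FPKM. It was lower with melatonin in both lines, 1.81-fold by CPM in JJ012 and -0.46 in log2 fold change in 143B, and at -0.55 on the TPM scale it did not pass in JJ012. COL18A1, the precursor of endostatin, was at 3.37, 1.66, 15.97 and 16.95 FPKM and 2.03-fold lower by CPM in JJ012. COL18A1 shares 1401 exonic bases with SLC19A1 on the opposite strand, which had 332, 287, 458 and 482 counts. COL8A1, a short-chain collagen of vessel walls, was at 3.09, 1.03, 0.80 and 1.24 FPKM, fell in JJ012 with a log2 fold change of -1.01, and had a log2 CPM ratio of 0.64 (0.30 to 0.98) in 143B. COL13A1, a membrane-spanning collagen, was at 0.59, 0.08, 8.37 and 6.83 FPKM. COL17A1, which anchors epithelial cells through hemidesmosomes, was at 1.42, 0.12, 0.16 and 0.12 FPKM and 12.3-fold lower by CPM in JJ012 with melatonin. The 18 collagens not passing 1 FPKM in any library reached at most 0.79 FPKM and 82 counts.

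**Figure D4:**
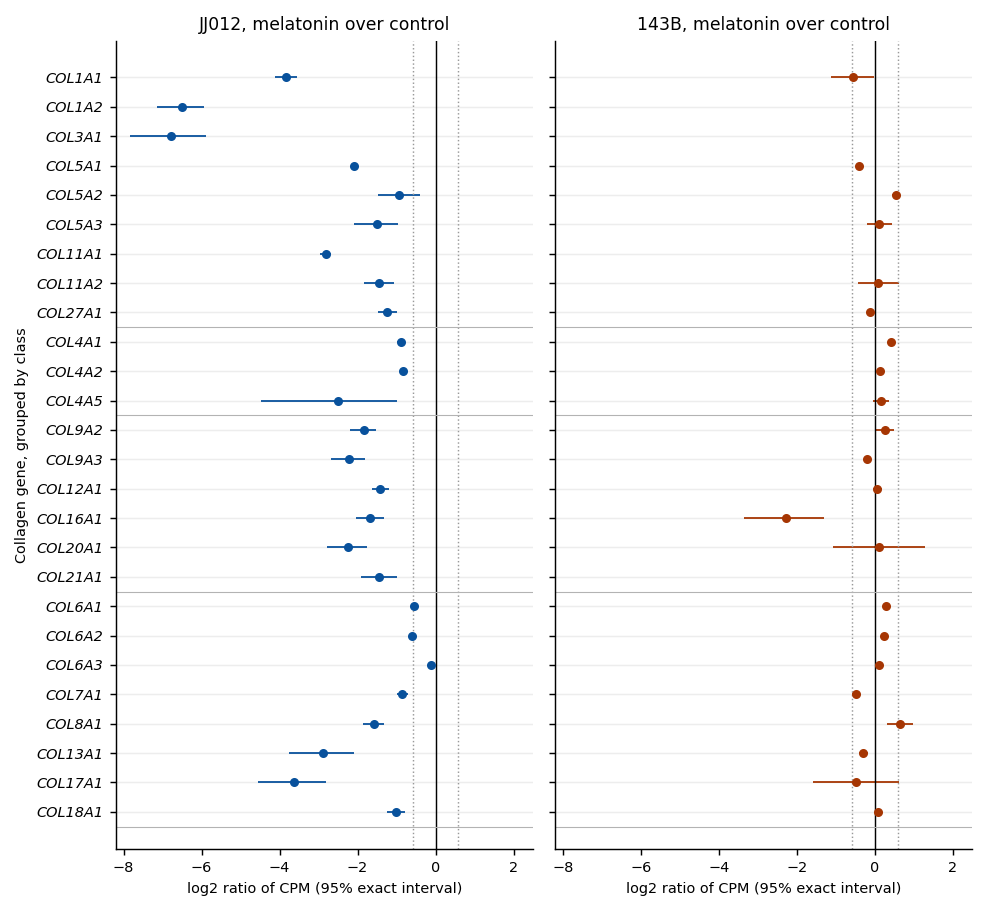
Log2 ratio of CPM, melatonin over control, with its exact 95% interval for counting error (horizontal axis), for the same 26 collagens in JJ012 (left) and 143B (right). Dotted lines mark 0.58 in either direction, and a gene without a count in one library has no point; JJ012 points lie left of 0 (COL6A3 is at -0.12 by CPM and turns to 0.16 on the TPM scale of FPKM), while those of 143B lie on both sides.

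Gene length and markers of other cells were examined beside the collagens. Across protein-coding genes the log2 fold change rose with exonic length (Spearman rho 0.40 over 11534 genes of the same 2 libraries, and -0.13 over 10878 in 143B). Collagens that passed were long, with a median of 9172 bases against 5236.5 for coding genes. Genes are not independent replicates, so no p is given. A running median of log2 fold change over length was taken over all 15794 genes tested in JJ012, where rho was 0.24. After it was subtracted, 22 of 22 collagens were lower, 21 of them past the threshold. Of all genes, 34.5% were then past the threshold in either direction. A running median over protein-coding genes alone was not computed. Markers of other cells were low, and the sum of each list was lower with melatonin in JJ012. The summed FPKM of 3 endothelial markers (PECAM1, VWF and CDH5) was 2.23, 0.93, 2.40 and 2.05, with CDH5 at 13 counts in both JJ012 libraries. For 3 muscle markers it was 2.2, 0.62, 0 and 0, with MYOD1 and MYOG at 0 counts in 3 of the 4 libraries. The 2 leukocyte markers PTPRC and CD68 summed to 3.44, 2.17, 0.83 and 1.20, and 4 epithelial markers to 0.21, 0.05, 1.40 and 0.83. Without the collagens on their lists, 7 osteoblast markers summed to 83.82, 67.43, 6.48 and 4.74, and 7 chondrocyte markers to 16.74, 6.73, 16.41 and 12.6. Of the osteoblast sums SPP1 alone held 79.39, 64.50, 0.40 and 0.53 FPKM, so their line difference is that of 1 gene. RUNX2, the next in level in the JJ012 control, was at 3.02, 2.59, 4.28 and 2.75 FPKM. Of the chondrocyte sums SOX9 held 15.06, 6.16, 15.48 and 12.09 FPKM. The part of gene length and of these markers in the collagen values was not tested.

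Between the untreated lines, which are also the controls of the melatonin comparisons, the family split by gene. Of 26 collagens that passed, 12 were higher in JJ012 and 11 lower, where 41.3% and 27.4% of all 16929 genes were. A gene that passed through 1 line alone is favoured to be higher there, as for COL11A1, COL1A2, COL3A1 and COL1A1 in JJ012. Among the 22 at 1 FPKM or more in JJ012, 12 were higher and 8 lower, beside 48.3% and 17.0% of all genes. Among the 16 chosen by 143B, 2 were higher in JJ012 and 11 lower, beside 27.4% and 35.1%. The higher genes were led by the fibrillar COL11A1 and COL1A2, which had no count in the 143B control. Against the floor of 3 counts there, COL11A1 was 1103-fold and COL1A2 715-fold higher by CPM. These folds leave out counting error in JJ012 and are not lower bounds. The exact intervals of the log2 ratio gave smaller minimum folds, with lower ends of 9.81 for COL11A1 and 9.18 for COL1A2. COL3A1 was 270-fold higher from 1305 against 4 counts, with a wide interval (log2 ratio 8.08, 6.72 to 9.95). COL1A1 was 22.3-fold (log2 ratio 4.48, 4.14 to 4.85), COL6A3 1.68-fold and COL5A1 1.65-fold higher. On the TPM scale COL6A3 was at 0.36 and COL5A1 at 0.34 in log2 difference, and neither passed. Lower in JJ012 were COL5A2 by a CPM factor of 21.9, COL9A3 by 19.6, COL4A5 by 16.8, COL13A1 by 14.1 and COL27A1 by 6.08. COL18A1 was 4.74-fold, COL6A2 3.57-fold, COL6A1 3.01-fold, COL7A1 2.77-fold, COL4A2 2.31-fold and COL12A1 1.78-fold lower in JJ012. The median log2 difference was 0.14 on the FPKM scale, beside 0.29 for all genes, and -1.23 with a filter of 5 FPKM. It was -0.22 on the TPM scale, where COL4A1 and COL9A2, below the threshold on both, changed sign.

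Many genes that modify and crosslink collagen chains also fell in JJ012. Of 37 modifying and processing genes, 31 passed the filter in JJ012, where 18 fell (18.6% of all genes did), 2 rose (19.6%) and the median log2 fold change was -0.76. On the TPM scale 15 fell and 4 rose, where 15.7% of all genes fell and 34.6% rose. In 143B, 29 passed, 1 rose (P3H4, 0.59), 1 fell (PCOLCE, -0.80), where 6.09% and 6.65% of all genes did, and the median was 0.02, or -0.04 with TPM. Crosslinking enzymes had the lowest median of the 4 groups, -2.34, and 4 of 4 that passed fell. LOX, lysyl oxidase, was the most abundant at 602.9, 80.21, 357.82 and 444.26 FPKM, with log2 fold changes of -2.89 for JJ012 and 0.31 for 143B. LOXL1, its relative, was at 47.03, 6.78, 4.55 and 4.76 FPKM and LOXL3 at 30.81, 6.70, 0.45 and 0.59 FPKM. PCOLCE, which enhances cleavage of the C-propeptide, was at 102.09, 21.01, 11.38 and 6.13 FPKM.

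Among hydroxylation and glycosylation genes 11 of the 14 that passed fell in JJ012, 9 on the TPM scale. P4HA1, a catalytic subunit of prolyl 4-hydroxylase, was at 382.67, 143.15, 237.76 and 169.46 FPKM, and its partner P4HB at 157.84, 60.39, 128.41 and 113.52 FPKM. PLOD1 and PLOD2, the lysyl hydroxylases that prepare crosslink sites, were at 188.14 to 72.20 and 143.29 to 45.78 FPKM in JJ012. The collagen chaperone SERPINH1 was at 138.60, 53.58, 6.31 and 6.59 FPKM. Of 9 folding and transport genes 2 fell and 2 rose (1 and 4 with TPM), shares near those of all genes. The risers were MIA3, which loads procollagen into transport vesicles, at 11.13 and 19.21 FPKM, and TMEM38B, an endoplasmic reticulum ion channel, at 9 and 18.14 FPKM.

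Of 12 collagen receptors, 9 passed in JJ012, with 4 lower and 1 higher (4 and 2 with TPM), where 18.6% of all genes fell and 19.6% rose. In 143B 10 passed, with 4 lower and 1 higher, where 6.65% and 6.09% of all genes were. ITGA10, a chondrocyte collagen receptor subunit, fell in both lines, at 24.54, 5.45, 4.80 and 1.30 FPKM. DDR1, a receptor tyrosine kinase, fell in both as well, at 23.47, 11.66, 37.87 and 23.82 FPKM. MRC2, an endocytic collagen receptor, fell in JJ012 (30.96 to 8.93 FPKM) and was at 34.35 and 38.40 FPKM in 143B, and OSCAR fell in JJ012 from 7.57 to 3.77 FPKM. ADGRG1, an adhesion receptor that binds type III collagen, moved in opposite directions, being at 5.95, 11.12, 5.43 and 2.26 FPKM. In 143B, ITGA11 fell (5.32 to 3.16 FPKM) and ITGA2 rose (126.16 to 199.84 FPKM). ITGB1, the shared beta subunit, was the most abundant receptor gene in JJ012, at 83.90 and 87.47 FPKM.

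**Figure D5:**
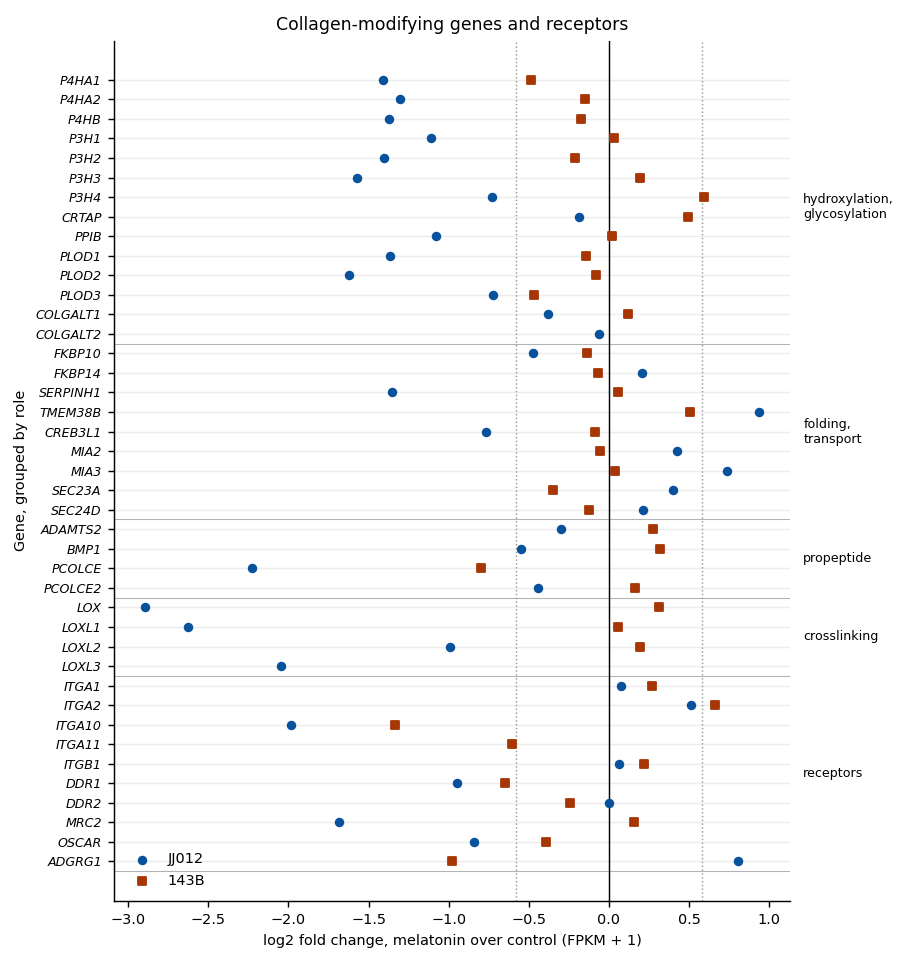
Log2 fold change of FPKM + 1, melatonin over control (horizontal axis), for genes that modify, fold, process and crosslink collagens and for receptors, with blue circles for JJ012 and brown squares for 143B, grouped by role. Dotted lines mark 0.58 in either direction, and a gene below the filter in a line has no point there; the 4 crosslinking genes lie between -0.99 and -2.89 in JJ012.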

How the data were processed

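Poly(A) RNA was sequenced in 4 libraries, 1 for each of 4 conditions. The authors deposited 1 table with read counts per gene and FPKM, a value scaled by gene length and library total. The submitters' processing notes name cutadapt 1.9.1, HISAT2 2.2.1, HTSeq 0.6.1, DESeq2 and hg38; the strand setting is not given in the sources used here. Columns ending in T were read as treated. CPM, TPM and ratios were computed with Python 3.11.15, numpy 2.4.6, scipy 1.17.1 and pandas 2.3.3, and plotted with matplotlib 3.10.9; calculations were tested on simulated data. Log2 fold changes used FPKM + 1, a filter of 1 FPKM in 1 of 2 libraries and a threshold of 0.58. Intervals are exact Clopper-Pearson. Count tests need replicates and were not used.

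Collagens with at least 5 FPKM in 1 library, those past the threshold in a line, and 6 fixed genes (COL1A1, COL1A2, COL2A1, COL9A1, COL10A1, COL11A1) were named. From the other lists, up to 4 rises and 4 falls per line of at least 5 FPKM and the most abundant members were named; P4HB, PLOD1, PLOD2, SERPINH1, P3H4, COL4A5, COL5A3 and the markers were added after their values were seen. Members and lists were chosen with earlier results of these data known. All 44 collagens were protein-coding in GENCODE 29; 9 share exonic bases with a gene on the opposite strand. Promoter windows came from RefSeq; 12 collagens had none in the table used (COL1A1, COL1A2, COL2A1, COL3A1, COL5A2, COL9A3, COL14A1, COL20A1, COL22A1, COL6A1, COL6A5, COL8A1). Alternatives changed the pseudocount, filter, scale, centring, length adjustment, threshold, call rule and background.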

Additional observations from a re-analysis of the deposited data

Results flagged for a closer look

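For 6 collagens the log2 fold change with melatonin was past the threshold and negative in JJ012 and positive in 143B, with the count intervals on opposite sides of 0, which set them apart for a closer look. The JJ012 value minus the 143B value was -1.19 for COL4A1, -0.84 for COL4A2, -1.54 for COL9A2, -0.85 for COL6A2, -1.33 for COL8A1 and -0.80 for COL18A1. Each line had 1 library per condition, so the difference was not tested. None of the 6 passed the threshold in 143B, where their values were 0.39, 0.12, 0.22, 0.24, 0.32 and 0.08. On the TPM scale COL4A2 (-0.53) and COL6A2 (-0.34) no longer passed in JJ012. The 143B count interval of COL18A1 ran from 0.002 to 0.17, and COL18A1 shares 1401 exonic bases with SLC19A1 on the opposite strand.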

How the results depend on the processing

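No paired analysis was possible because each line had 1 library per condition, so no replicates could be paired within a line or left out in turn. A fit of both lines together, with the line as a block, would have 1 residual degree of freedom and was not run. In JJ012 the count of 20 lower collagens became 9 with a filter of 5 FPKM (11 passed), 9 with a threshold of 1, and 32 by the count interval, and 0 were higher in each. It was 17 with TPM and 21 with no filter or after the length adjustment. The share of all genes called in either direction moved as well, from 38.2% in the main setting. It was 39.7% with a filter of 5 FPKM, 14.7% with a threshold of 1 and 41.6% by the count interval. With TPM it was 50.3%, with no filter 11.5% and after the length adjustment 34.5%. The JJ012 median of -0.80 became -1.41 with a pseudocount of 0.1 FPKM, -0.55 with no filter and -1.43 with CPM. In 143B, 0 collagens passed under each FPKM, TPM and CPM setting, and 17 (10 higher, 7 lower) by the count interval. Between the lines the count of 23 became 15 with a filter of 5 FPKM, 6 higher and 9 lower, and the median of 0.14 became -1.23. Rescaling to TPM moved the median gene from 0.01 to 0.27 in JJ012 and from 0.29 to -0.01 between the lines. The count interval and the protein-coding background were chosen after seeing the data. No called value changed sign. Among single collagens, 581 alternative values kept their call and 36 did not, 18 because the value crossed the threshold and 18 because the gene left the filter. Low counts gave wide intervals, as for COL4A6 in JJ012 (18 and 5 counts, log2 ratio -3.38 to -0.11). Nothing here measures the spread between cultures.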
